A study of Rattus norvegicus with 77 samples.

Results

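Genes of the acrosome and of egg binding were examined in sperm RNA of Fischer 344 rats that had drunk 2,5-hexanedione (HD) or water. The list held 10 genes: Acr, Acrbp, Acrv1, Spaca1, Spaca3, Zpbp, Zpbp2, Spam1, Izumo1 and Crisp2. They were chosen by name, as proteins of the acrosome or of sperm and egg contact, and each was read from the probe set (the probes of 1 transcript) that carries its symbol alone in the platform annotation. In all, 9 of the 10 were measured, each on 1 probe set, out of the 29214 probe sets on the array. Spaca1, a membrane protein of the acrosome, matched no probe set by symbol, older symbol or gene identifier, and is not described further as a measurement.

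HD is a metabolite of the solvent n-hexane that damages the microtubules of Sertoli cells, the somatic cells that nurse developing sperm. For 3 months adult males drank water with HD at 0.33% or plain water, and some of each then lived a further 3 months without exposure. Sperm were flushed from the cauda epididymis and passed through a buffer that lyses somatic cells, and RNA of each rat went onto 1 Affymetrix Rat Gene 1.0 ST array. The 77 arrays comprised 19 labelled HD, 20 labelled water, 20 HD-recovery and 18 water-recovery, all of the same strain, so that recovery also meant 3 months of added age.

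The acrosome is a secretory vesicle that forms from the Golgi apparatus of the round spermatid and spreads over the front of the sperm nucleus. It holds enzymes and binding proteins that are released when the sperm meets the zona pellucida, the coat of the egg, and its exocytosis exposes the proteins that let sperm and egg membranes fuse. The genes are transcribed in spermatocytes and spermatids, so mature sperm, which make little or no new RNA, carry what remains of those transcripts.

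Arrays of 1 group varied. Array medians lay between 6.51 and 6.78 on the log2 scale. Each array was correlated with the others of its group, and the median of these correlations ran from 0.83 to 0.978. Judged by 3 scaled median absolute deviations, outlying arrays numbered 4 in HD, 1 in water, 3 in HD-recovery and 2 in water-recovery. These 10 arrays are said to stand apart. All were kept, and the values without them are given where they differ by much. The mean of 21 measured genes of sperm and spermatid structure ran over the arrays from 8.89 to 11.00. The mean of 21 leukocyte genes ran from 7.26 to 8.64. Levels of different probe sets cannot be set against each other, so these means serve only to compare arrays.

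The sequences before the start of 5 of the genes are shown because the transcripts of Acr, Acrbp and Crisp2 varied together from array to array, Spam1 varied apart from them, and Izumo1 holds the motif that was searched for. They are the 250 bases upstream of the start in RefSeq on GRCr8, read 5′ to 3′ on the strand of the gene: Acr at chr7:122517684-122517933, Acrbp at chr4:159537149-159537398, Crisp2 at chr9:27604004-27604253, Izumo1 at chr1:105227353-105227602 and Spam1 at chr4:54268037-54268286, all on the plus strand. Capitals mark the cAMP response element TGACGTCA, the site of CREM, a transcription factor of round spermatids, or its core TGACG, searched on both strands (the core lies inside the full element, and reads CGTCA where it is on the other strand).
Acr: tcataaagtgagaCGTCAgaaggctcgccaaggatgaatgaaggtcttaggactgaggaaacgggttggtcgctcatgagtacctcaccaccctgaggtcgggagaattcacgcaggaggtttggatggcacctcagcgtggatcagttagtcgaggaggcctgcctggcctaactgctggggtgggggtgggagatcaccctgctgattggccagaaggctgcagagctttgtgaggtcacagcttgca
Acrbp: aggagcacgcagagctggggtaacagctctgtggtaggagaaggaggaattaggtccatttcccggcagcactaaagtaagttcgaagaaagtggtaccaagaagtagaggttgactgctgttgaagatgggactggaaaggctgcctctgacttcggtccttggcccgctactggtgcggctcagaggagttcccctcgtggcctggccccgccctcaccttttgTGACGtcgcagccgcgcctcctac
Crisp2: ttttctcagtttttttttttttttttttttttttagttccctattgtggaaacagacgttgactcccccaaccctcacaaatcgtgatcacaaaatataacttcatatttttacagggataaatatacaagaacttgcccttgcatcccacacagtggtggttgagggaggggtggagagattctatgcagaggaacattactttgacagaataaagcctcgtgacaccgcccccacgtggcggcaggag
Izumo1: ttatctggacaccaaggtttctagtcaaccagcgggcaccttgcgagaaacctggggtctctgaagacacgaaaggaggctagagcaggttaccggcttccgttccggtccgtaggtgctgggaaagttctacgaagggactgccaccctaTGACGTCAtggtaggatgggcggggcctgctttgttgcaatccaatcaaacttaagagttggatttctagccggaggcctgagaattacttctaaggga
Spam1: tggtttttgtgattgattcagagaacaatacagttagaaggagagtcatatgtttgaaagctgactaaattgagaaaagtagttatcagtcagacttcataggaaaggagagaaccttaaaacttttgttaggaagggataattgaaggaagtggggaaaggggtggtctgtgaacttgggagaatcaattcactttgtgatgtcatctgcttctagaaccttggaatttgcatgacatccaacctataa
RefSeq promoters matched 9 of the 10 genes, with none for Spaca3. The full element stood before Izumo1 alone, from position −99, against 1.59% of 33465 rat promoters of the same length. The core stood before 4 of the 9 genes (Acr, Acrbp, Spaca1 and Izumo1), against 18.2% of promoters. In Acrbp it began at position −24 and in Acr, on the opposite strand, at position −237. No match was found in this window for Crisp2, Spam1, Acrv1, Zpbp or Zpbp2.

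Between arrays labelled HD and arrays labelled water, 8 of the 9 transcripts had a higher mean in HD and Zpbp a lower one, and none passed the test. Fold changes are HD minus water on the log2 scale, from limma over all 29214 probe sets, with Storey q-values and a threshold of q under 0.05. By the labels, their direction is opposite to the one the paper gives for nearly all of the transcripts it lists as altered. No member was called (0 of 9), against 138 of all probe sets (0.472%), of which 5 were higher (0.0171%) and 133 lower (0.455%). At an unadjusted p under 0.05 there were 4 of 9 members, against 8.3% of all probe sets. Of these, 3 were higher (Crisp2, Spaca3 and Zpbp2, against 3.4% of all) and 1 was lower (Zpbp, against 4.91%). A higher mean in HD was found for 16440 of all 29214 probe sets. The median log2 fold change was 0.24 over the members and 0.01 over all probe sets. In bulk RNA, fewer cells of a type and less RNA per cell cannot be told apart.

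Crisp2, a cysteine-rich secretory protein of the acrosome and the tail, had the largest positive difference of the members. It ranged from 9.59 to 12.08 in HD, with a median of 11.03, and from 8.89 to 11.35 in water, with a median of 10.71. The groups overlapped, with 14 of the 19 HD arrays above the water median and 5 above every water array. Its mean was 11.04 ± 0.63 (SD, n = 19) in HD and 10.49 ± 0.67 (SD, n = 20) in water. By limma this was 0.55 on the log2 scale (SE 0.20, q = 0.293). The mean of the sperm and spermatid markers, with which Crisp2 varied, was 9.79 ± 0.46 in HD and 9.65 ± 0.42 in water (SD), and its part in the difference was not tested.

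Zpbp, a protein of the acrosomal matrix that takes part in binding to the zona pellucida, was the member with a lower mean in HD. It ran from 6.99 to 9.13 in HD, with a median of 7.75, and from 7.19 to 9.42 in water, with a median of 8.22. In HD, 15 of 19 arrays lay below the water median and 4 lay below every water array. The log2 fold change was −0.52 (SE 0.20, q = 0.34 by limma). Zpbp2, its paralogue in the acrosome, ran from 5.32 to 6.58 in HD (median 5.81) and from 5.38 to 6.03 in water (median 5.68), and its log2 fold change was 0.17 (SE 0.07, q = 0.505).

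The mean of the leukocyte markers was also lower in HD. Of 21 measured leukocyte genes, 18 had a lower mean in HD and 5 passed the test. Their mean per array ran from 7.26 to 8.22 in HD and from 7.42 to 8.24 in water. Among 7 erythroid genes, 6 had a lower mean in HD and 1 passed. Of all 29214 probe sets, 12774 had a lower mean in HD and 133 (0.455%) passed as lower. The part of the leukocyte and erythroid markers in the Zpbp difference was not tested.

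The transcripts of Acr and Acrbp, proteins of the acrosomal matrix and contents, had their highest values on 1 HD array, described below. Acr encodes acrosin, the serine protease of the acrosome. It ran from 7.04 to 10.88 in HD, with a median of 7.94, and from 6.78 to 8.39 in water, with a median of 7.68, and its log2 fold change was 0.40 (SE 0.21, q = 0.648). Acrbp encodes the protein that binds proacrosin, the inactive form of acrosin, while the vesicle is packed. It ran from 6.58 to 8.58 in HD (median 7.14) and from 6.61 to 7.76 in water (median 7.03). The difference was 0.13 on the log2 scale (SE 0.11, q = 0.92). The groups overlapped for both genes, with 3 HD arrays above every water array for Acr and 1 for Acrbp.

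Acrv1, also called SP-10, is an antigen of the acrosomal matrix made in round spermatids. Its values lay between 5.96 and 11.03 in HD, with a median of 6.49, and between 6.01 and 7.00 in water, with a median of 6.28. The log2 fold change was 0.43 (SE 0.24, q = 0.692). Spaca3, a lysozyme-like protein of the acrosome, had little spread: 7.31 to 8.03 in HD (median 7.66) and 7.36 to 7.77 in water (median 7.57). In 16 of 19 HD arrays it lay above the water median, and its log2 fold change was 0.12 (SE 0.05, q = 0.39).

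Spam1 and Izumo1 act at the egg itself. Spam1, or PH-20, is a hyaluronidase that opens the cumulus matrix, and it ran from 5.45 to 10.38 in HD (median 6.37) and from 5.30 to 6.54 in water (median 6.27). Its log2 fold change was 0.39 (SE 0.23, q = 0.739). Izumo1, the sperm protein that binds Juno on the egg membrane before fusion, ran from 4.98 to 8.85 in HD (median 5.21) and from 4.75 to 5.78 in water (median 5.19). Its log2 fold change was 0.24 (SE 0.19, q = 0.886). Izumo1, Spam1, Acrv1 and Zpbp2 lay below 6.72, the median of all values, on most arrays. A filter on dim probe sets, given in the closing section, left them out. Of the 19 HD arrays 5 lay above every water array for Spam1 and 2 for Izumo1, and for both genes 1 array was far above the rest.

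**Figure D1:**
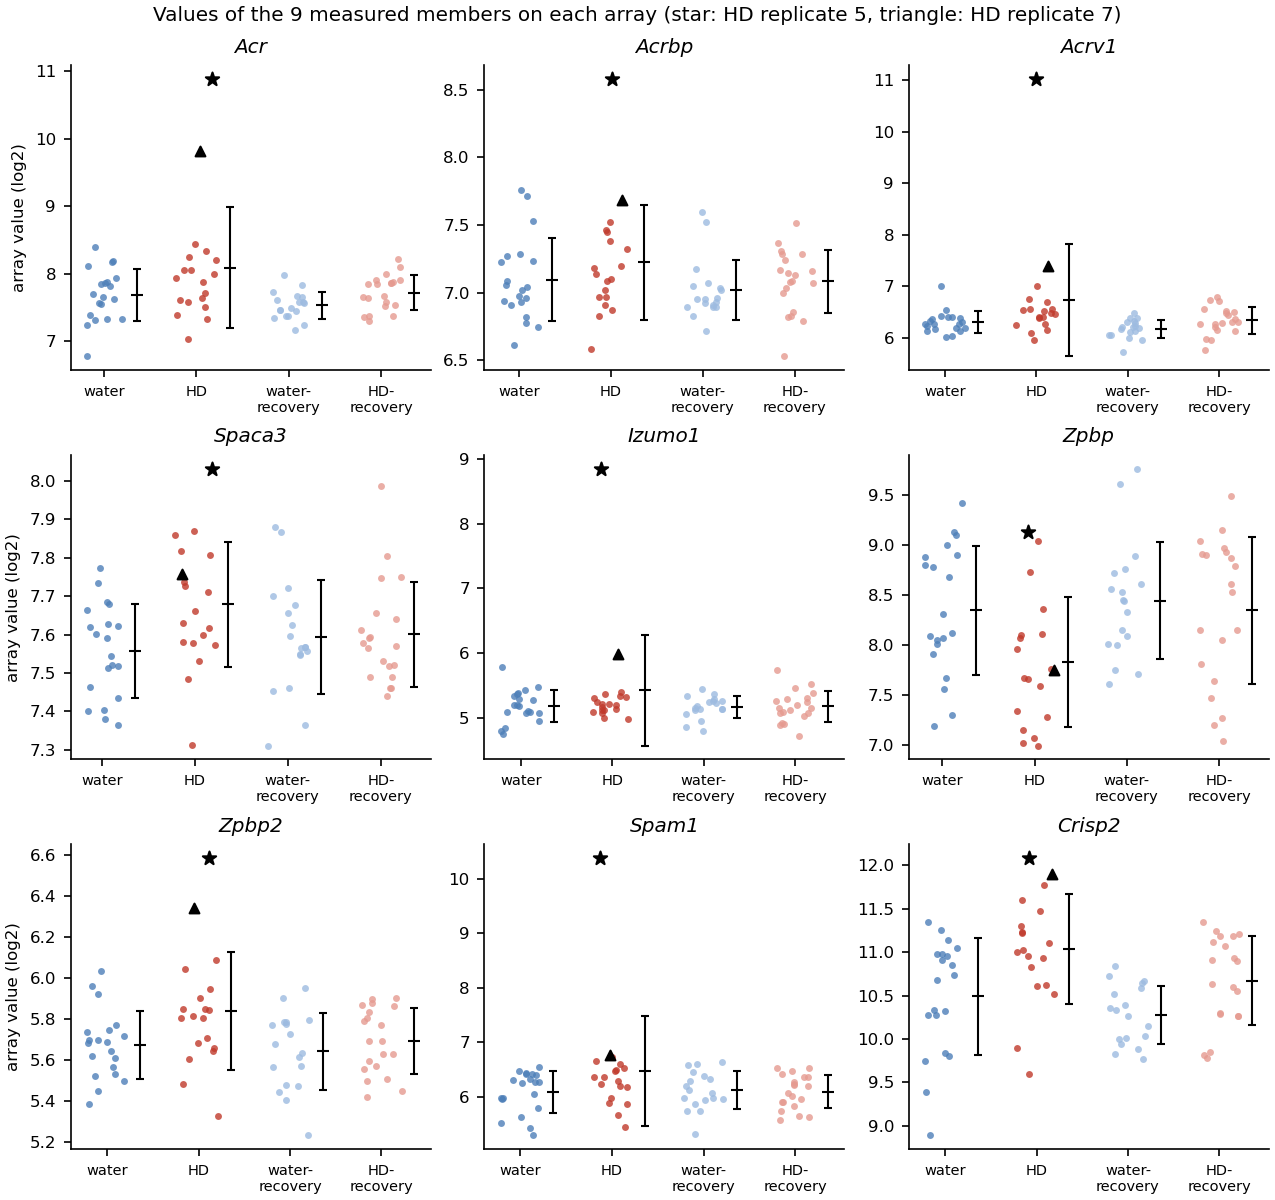
Array values (log2, vertical axis, a separate scale in each panel) of the 9 measured genes in the 4 groups, with each point 1 array and the bar beside each group its mean ± SD. The star is HD replicate 5, the highest of 77 arrays for 8 of the 9 genes, and the triangle is HD replicate 7, the second in HD for Acr, Acrbp, Acrv1, Izumo1, Zpbp2, Spam1 and Crisp2.

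The array far above the rest was HD replicate 5, 1 of the 4 HD arrays that stand apart. It held the highest value of all 77 arrays for 8 of the 9 members, all but Zpbp, while 16.8% of all probe sets had their highest value there. Acrv1 stood at 11.03, against 7.40 on the next array, and Spam1 at 10.38, against 6.77 on the next. Izumo1 stood at 8.85, against 5.98, and Acr at 10.88, against 9.82. Above the water median, this was 26.9-fold for Acrv1, 17.3-fold for Spam1, 12.6-fold for Izumo1 and 9.21-fold for Acr. Acrbp was 2.92-fold, Crisp2 2.59-fold, Zpbp2 1.86-fold, Zpbp 1.88-fold and Spaca3 1.38-fold above it.

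The array was also high for other genes of the male germ line. It exceeded all 76 other arrays for 16 of 21 genes of acrosome biogenesis and matrix, 21 of 25 of egg binding and fusion, 8 of 12 spermatocyte genes and 10 of 21 sperm and spermatid genes. Of 13 Sertoli cell genes it was the highest for 6, among them Clu, whose product clusterin Sertoli cells secrete, at 11.30 and Cldn11, a tight junction claudin of Sertoli cells, at 10.19. The other 4 it led were Wt1, Amhr2, Gata1 and Tjp1. The list was divided, since Amh, Rhox5, Inhbb and Dhh were lower there than on each of the 76 other arrays, Fshr lay above 3 of them, and Inha and Vim lay within the range of the others. It was the highest for 1 of 21 leukocyte, 1 of 7 erythroid and 1 of 16 epididymal genes, and the median difference from water was −0.53 for the leukocyte list. Over all probe sets that median was −0.30.

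HD replicate 7, which did not stand apart by the limit above, came next. Leaving replicate 5 aside, it was the highest of the other 76 arrays for 6 of the 9 members (Acr, Acrv1, Izumo1, Zpbp2, Spam1 and Crisp2), against 4.35% of all probe sets. Acr was 4.42-fold above the water median there, Crisp2 2.29-fold and Acrv1 2.18-fold. It was the highest for 2 of 12 spermatocyte genes and 0 of 13 Sertoli cell genes. Of the wider lists it was the highest for 7 of 21 genes of acrosome biogenesis and matrix and 11 of 25 of egg binding and fusion. These counts describe 2 arrays and carry no test.

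**Figure D2:**
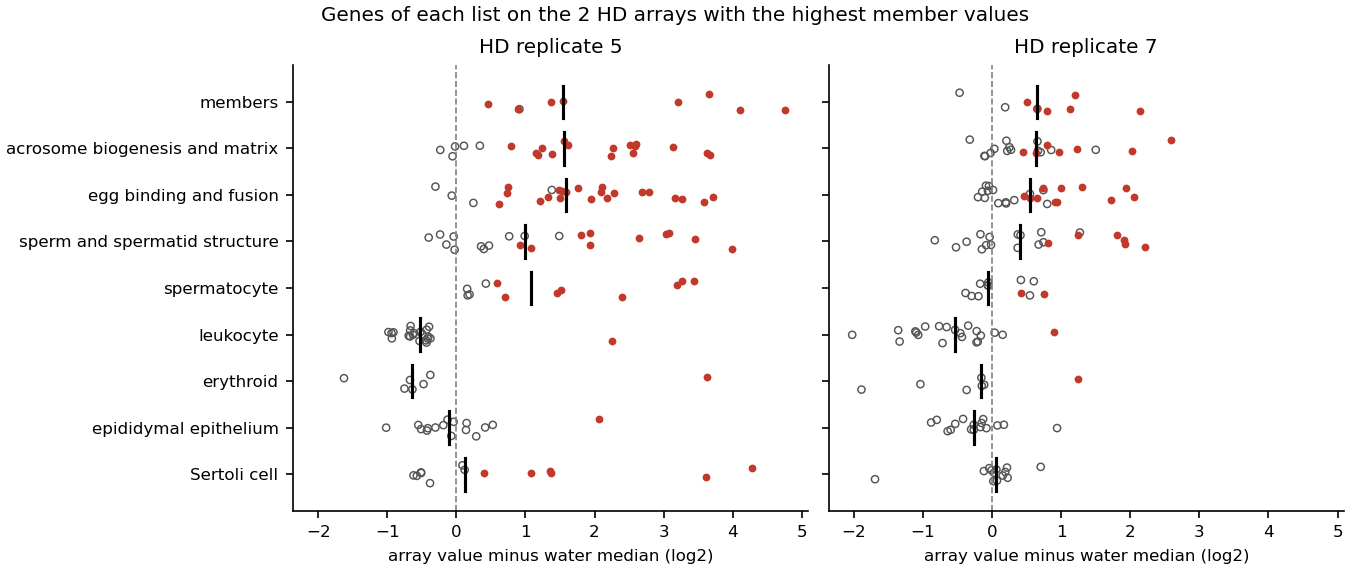
Difference of each gene from its water median (log2, horizontal axis) on HD replicate 5 and HD replicate 7, by gene list. Filled points exceed every other array (replicate 5 is left out for replicate 7), open points do not, and the black bar is the median of the list, 1.55 and 0.66 for the members.

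Without HD replicate 5 the differences between HD and water shrank for the genes that it led. The log2 fold change fell to 0.19 for Acrv1 (q = 0.261), 0.17 for Spam1 (q = 0.397), 0.05 for Izumo1 (q = 0.572) and 0.25 for Acr (q = 0.379). Crisp2 stayed at 0.49 (q = 0.196) and Zpbp at −0.59 (q = 0.104). Acrbp stood at 0.05 (q = 0.595). Over all probe sets 329 were called without it, against 138 with it. Leaving out each of the 39 arrays in turn called no member, and Acrv1, Spam1, Izumo1, Acr and Acrbp moved by over 1.5 times only without this array.

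The calls depended on how the uneven arrays were treated. With array weights, 5 of 9 members passed, Crisp2, Acrv1, Zpbp2 and Spaca3 higher and Zpbp lower, beside 17.7% of all probe sets. With the 4 HD arrays and 1 water array that stand apart left out, 6 of 9 passed, the same 5 and Spam1, beside 30.2% of all probe sets. With the first principal component of the residuals as a covariate, which leaves the differences themselves as they are, 2 of 9 passed, Crisp2 and Zpbp, beside 5% of all. Crisp2 and Zpbp passed under all 3 settings, at log2 fold changes of 0.49 to 0.60 and −0.52 to −0.74. The settings reuse the same arrays, and the component was taken from their own residuals, so they are not independent tests. All 3 take out or weigh down spread within groups, against which the differences are tested. Calls over all probe sets rose from 138 to 5178 with weights, 8818 without the arrays standing apart and 1462 with the component. Passing under them is therefore not added support for a difference.

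After recovery, Crisp2 again had the largest difference, and again no member passed. In HD-recovery against water-recovery 0 of 9 members and 0% of all probe sets were called, and 3 of 9 had an unadjusted p under 0.05, against 4.51%. These were Crisp2, Acr and Acrv1, all higher, against 2.86% higher and 1.65% lower of all probe sets. Crisp2 ran from 9.775 to 11.35 in HD-recovery (median 10.76) and from 9.77 to 10.84 in water-recovery (median 10.30). Of 20 HD-recovery arrays 10 lay above every water-recovery array, and the log2 fold change was 0.40 (SE 0.14, q = 0.753 by limma). The sperm and spermatid markers moved with it, with means of 9.68 ± 0.39 and 9.47 ± 0.24 (SD), and their part was not tested.

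Acr lay between 7.31 and 8.22 in HD-recovery (median 7.76) and between 7.17 and 7.99 in water-recovery (median 7.53), and 15 of 20 HD-recovery arrays were above the water-recovery median. Its log2 fold change was 0.19 (SE 0.07, q = 0.923). Acrv1 lay between 5.77 and 6.801 (median 6.31) and between 5.73 and 6.48 (median 6.20), with 7 HD-recovery arrays above all of water-recovery, and its log2 fold change was 0.16 (SE 0.07). The other 6 members differed by −0.09 to 0.07 on the log2 scale, within the spread of either group. Zpbp had a higher median in HD-recovery than in water-recovery (8.57 and 8.45) but a lower mean (8.35 and 8.45), with a log2 fold change of −0.09 (SE 0.21). With array weights 2 of 9 members passed (Acr and Crisp2, beside 1.8% of all probe sets), and leaving out those standing apart 3 of 9 did (Acr, Acrbp and Crisp2, beside 13.1%). With the first component as a covariate none passed (0 of 9, beside 0.161%).

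**Figure D3:**
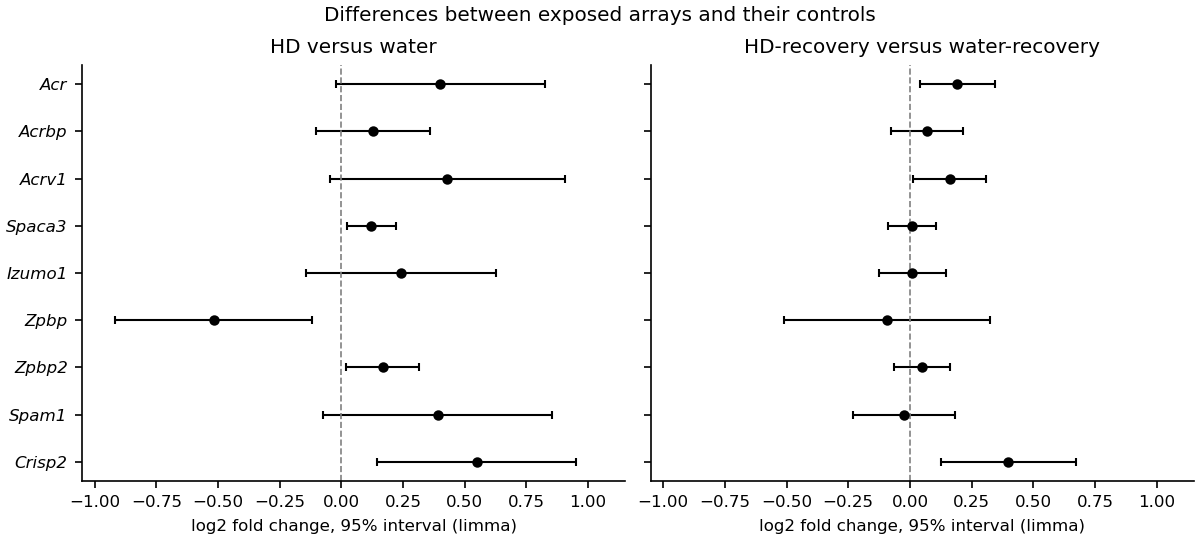
Log2 fold changes of the 9 genes (horizontal axis) with 95% intervals from limma, for HD against water and for HD-recovery against water-recovery. No gene passed q under 0.05 in either panel, and Crisp2 was the highest in both, at 0.55 and 0.40.

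Between HD-recovery and HD the signs were the reverse of those between HD and water. The comparison shares its HD arrays with that one, so its signs are not a separate result. No member was called (0 of 9, against 0.154% of all probe sets, 0.127% higher and 0.0274% lower). At an unadjusted p under 0.05 there were 6 of 9, against 9.55%, with 1 higher (against 4.28%) and 5 lower (against 5.27%). Zpbp was higher in HD-recovery by 0.52 (SE 0.21, q = 0.323 by limma), and the other 8 were lower by values from −0.08 to −0.40. Once HD replicate 5 was left out, Acr was at −0.21, Acrv1 at −0.16, Spam1 at −0.17, Izumo1 at −0.06 and Acrbp at −0.06. With array weights 5 of 9 passed, beside 45.2% of all probe sets, and without the arrays standing apart 5 of 9, beside 57.4%. Zpbp alone passed with the first component as a covariate, beside 4.73%.

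Zpbp differed along the replicate numbers as well as along the groups. In HD-recovery its mean was 7.87 ± 0.59 (SD) in the arrays numbered 1 to 10 and 8.83 ± 0.54 in those numbered 11 to 20. In water-recovery it was 8.15 ± 0.44 and 8.74 ± 0.59, in HD 8.01 ± 0.69 and 7.67 ± 0.60, and in water 8.59 ± 0.57 and 8.11 ± 0.67. The higher numbers were thus the higher in both recovery groups and the lower in both others. HD-recovery minus HD was −0.13 in the first set of numbers and 1.16 (q = 0.0027 by limma, beside 26.3% of all probe sets called) in the other. The labels do not say what the numbers stand for.

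With all arrays kept, the means of water-recovery arrays differed little from those of water arrays. None of the members was called (0 of 9, against 0%), none had an unadjusted p under 0.05 (against 4.7% of all probe sets, 2.36% higher and 2.34% lower), and the log2 fold changes ran from −0.22 for Crisp2 to 0.10 for Zpbp. For Zpbp this joined opposite differences by replicate number. It was −0.43 with numbers 1 to 10, while with 11 to 20 the means were 8.74 in water-recovery and 8.11 in water. Numbers 1 to 10 alone called 2106 of all probe sets and 0 members. The test of whether the exposure difference itself changed with recovery also called none (0 of 9, against 0%). At an unadjusted p under 0.05 there were 0 of 9, against 3.38% (1.36% higher and 2.02% lower). With the first component as a covariate neither called a member, beside 1.08% and 1.22% of all probe sets. That change, the HD minus water difference less the HD-recovery minus water-recovery difference, ran from −0.42 (SE 0.29) for Zpbp to 0.41 (SE 0.26) for Spam1. Leaving out HD replicate 5, it was 0.20 for Spam1, 0.05 for Acr, 0.04 for Izumo1, 0.03 for Acrv1 and −0.01 for Acrbp. With array weights 3 of 9 passed, Spaca3, Zpbp and Spam1, beside 33.7% of all probe sets. The same 3 passed without the arrays standing apart, beside 56.8%.

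The SD of a member between rats of 1 group was not shown to differ with exposure. Acrv1 had an SD of 1.09 in HD and 0.21 in water, Spam1 of 1.01 and 0.38 and Izumo1 of 0.86 and 0.25. In permutation tests (two-sided, 100000 resamples) of the mean absolute deviation from the group median, over 9 members and 2 pairs of groups, adjusted p lay between 0.472 and 0.793. Without HD replicate 5 the SDs in HD were 0.33 for Acrv1, 0.37 for Spam1 and 0.22 for Izumo1.

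More genes of the same functions were read from wider lists. Of 21 measured genes of acrosome biogenesis and matrix, 19 had a higher mean in HD than in water and none passed, with a median log2 fold change of 0.10. Of 25 genes of egg binding and fusion, 20 had a higher mean and none passed, with a median of 0.20. Without HD replicate 5 the first count was 13 of 21, with a median of 0.02, and none passed. The second was again 20 of 25, with a median of 0.12, and none passed. With all arrays kept, 16440 of all 29214 probe sets had a higher mean in HD. Without the HD and water arrays standing apart, 4 of the 21 passed higher and 1 lower, and 12 of the 25 passed higher and 2 lower, beside the 30.2% of all probe sets. The smallest p-values belonged to Capza3, an actin capping subunit of the sperm head (0.50, SE 0.15, q = 0.14), Adam3a, a sperm surface protein needed for zona binding (0.62, SE 0.20, q = 0.209), Ace, whose testis form sits on the sperm surface (0.37, SE 0.13, q = 0.251), and Pkdrej, a receptor of the acrosome region (0.13, SE 0.04, q = 0.278). Spesp1, a protein of the equatorial segment, stood at 0.51 (SE 0.20), and at 0.34 without HD replicate 5, and Actl7b, an actin-like protein of the spermatid, at 0.12 (SE 0.05).

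The acrosome list held 2 genes below 0 in HD with all arrays, 8 without HD replicate 5 and 9 without the arrays standing apart. Vps54 and Gopc, both of Golgi traffic, had log2 fold changes of −0.10 and −0.06. The egg binding list held 5 genes below 0 with all arrays. Among these, Tmem95, Tex101 and B4galt1 had −0.11, −0.21 and −0.05. The other 4 measured genes of the Crisp family had lower means in HD (3 of 4 without HD replicate 5), while that of Crisp2 was higher. Crisp3 was at −0.67 (SE 0.27, q = 0.414) and Crisp1, a secretory product of the epididymal epithelium, at −0.37 (SE 0.23). Crispld2 and Crispld1 lay at −0.04 and −0.01. None of these passed.

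After recovery the leading genes of the lists were partly shared. Adam5 had the smallest p, at 0.41 on the log2 scale (SE 0.12, q = 0.72), and Adam3a stood at 0.36 (SE 0.12), Capza3 at 0.25 (SE 0.08) and Ace at 0.24 (SE 0.09). Galntl5 was at 0.20 (SE 0.08) and Sppl2c at 0.27 (SE 0.11). The largest negative value of the acrosome list was −0.05 for Zp3r and of the egg binding list −0.05 for Spaca6. In HD-recovery against HD, Ace was at −0.38 (SE 0.11), Capza3 at −0.37 (SE 0.12), Adam3a at −0.47 (SE 0.17) and Pdilt at −0.38 (SE 0.14). Pdilt stood at 9.77 on HD replicate 5, against 6.72 on the next array, and without that array its value was −0.19. Without the arrays standing apart Ace was at −0.17, Adam3a at −0.26 and Pdilt at −0.22. No gene of the wider lists passed in any of the 5 comparisons with all arrays kept. Without the arrays standing apart, HD-recovery against water-recovery called 8 of 21 acrosome and 7 of 25 egg binding genes higher and 2 of 4 Crisp family genes lower, beside 13.1% of all probe sets. In HD-recovery against HD that setting called 10 of 21, 11 of 25 and 3 of 4 in either direction, beside 57.4%.

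The members did not vary as 1 block from rat to rat. With the group means removed, 36 pairs were correlated over the 77 arrays (permutation within groups, 100000 resamples, p-values adjusted over the 36). In all, 25 pairs passed with a positive r and 1 with a negative r. Without HD replicate 5, 18 passed with a positive r and 6 with a negative r, and 19 pairs passed with the same sign both times. The median r was 0.42 with that array and 0.24 without it.

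Acr, Acrbp and Crisp2 varied together, with or without that array. For Acr and Crisp2 Pearson's r was 0.73 and Spearman's rho 0.84 (both p = 1e-05, the smallest the permutations can give, adjusted 4.5e-05 and 5.1e-05). Without the 2 arrays farthest from the median of Acr, HD replicates 5 and 7, r was 0.84. Within the groups it ran from 0.75 in HD to 0.90 in HD-recovery. Acr and Acrbp had an r of 0.78 and a rho of 0.69 (both p = 1e-05, adjusted 4.5e-05 and 5.1e-05), and an r of 0.67 without the same 2 arrays. Zpbp was not apart from these genes. With Acrbp its r was 0.66, and 0.65 without HD replicate 5, and it ran from 0.62 to 0.81 within the groups. With Crisp2 its r was 0.50, and 0.47 without HD replicate 5, and with Acr it was 0.35 and 0.27. The upstream sequences of Acr and Acrbp, printed above, both hold the TGACG core, which stood before 18.2% of promoters. Those of Crisp2 and Zpbp do not hold it, and a part of the core in these correlations was not tested.

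The correlations among Acrv1, Izumo1 and Spam1 were lower without HD replicate 5. Acrv1 and Izumo1 had an r of 0.86 (permutation p = 0.00015, adjusted 0.000415) but a rho of 0.34 (p = 0.0234, adjusted 0.0443). Without the 2 arrays farthest from the median of Acrv1, HD replicates 5 and 10, r was 0.32, and within water and water-recovery it was 0.05 and −0.22. Izumo1 and Spam1 went from 0.74 to 0.16 without the farthest arrays, HD replicate 5 and water replicate 9. Acrv1 and Spam1 went from 0.83 to 0.43 without HD replicates 5 and 10, and without HD replicate 5 alone the r of 0.41 passed (adjusted permutation p = 0.000851).

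Spam1 and Spaca3 varied against Zpbp. Spaca3 and Zpbp had an r of −0.56 and a rho of −0.61 (both p = 1e-05, adjusted 4.5e-05 and 5.1e-05), and an r of −0.66 without HD-recovery replicate 2 and HD replicate 5. For Zpbp and Spam1 r was −0.18 over all arrays (permutation p = 0.111, adjusted 0.133) and rho −0.53 (p = 1e-05, adjusted 5.1e-05). Without HD replicate 5, where both were high, r was −0.65 (adjusted permutation p = 4.5e-05), and it ran from −0.50 to −0.73 in the 4 groups. Spam1 and Acrbp had an r of −0.52 on those 76 arrays, against 0.16 with HD replicate 5. Spam1 and Spaca3 varied together, at an r of 0.52 over all arrays and 0.50 without that array. Leaving out all arrays standing apart, r was 0.25 for Spam1 and Spaca3, −0.29 for Spam1 and Acrbp, −0.46 for Spam1 and Zpbp and −0.52 for Spaca3 and Zpbp. In that setting the r of Acr, Acrbp and Crisp2 with each other lay between 0.64 and 0.78.

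**Figure D4:**
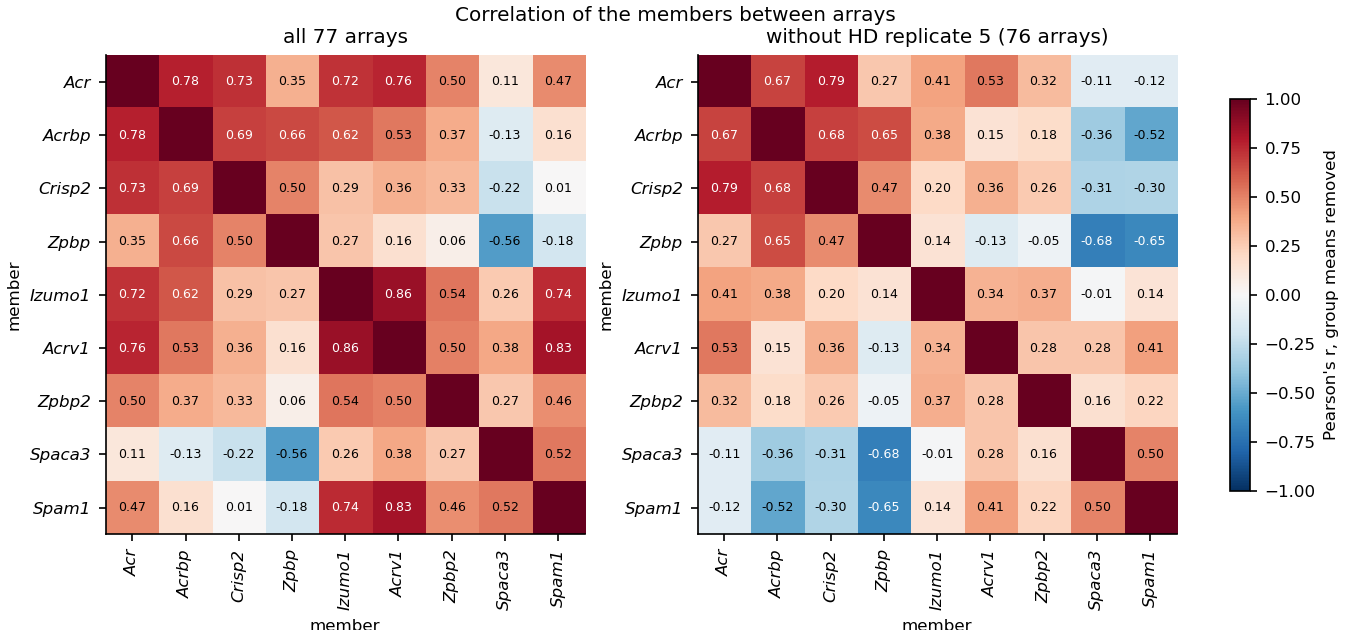
Pearson's r of each pair of genes over arrays with group means removed, for all 77 arrays and for 76 arrays without HD replicate 5, with colour and number giving r. Acr, Acrbp and Crisp2 stay at 0.67 to 0.79 without that array, while Spam1 with Zpbp goes from −0.18 to −0.65.

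The members also followed different marker lists. Over 54 pairs of a member and a list mean, Crisp2 and the sperm and spermatid list had the highest r, at 0.92 (rho 0.93, both permutation p = 1e-05, adjusted 5.4e-05 and 4.5e-05). It was 0.92 without HD replicates 5 and 18, and from 0.88 to 0.94 within the 4 groups. Acr and Acrbp had 0.77 and 0.82 with that list. Spam1 followed the spermatocyte list, at an r of 0.89 and a rho of 0.73 (both permutation p = 1e-05, adjusted 5.4e-05 and 4.5e-05), and 0.66 without HD replicates 5 and 3. That list mean was 7.36 on HD replicate 5 and at most 6.15 on the other arrays, with 5.90 ± 0.06 (SD) in water. Apart from HD replicate 5 it thus lay below 6.72, the median of all values, as Spam1 did on most arrays. This r is therefore largely between 2 dim signals.

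Zpbp followed the markers of blood cells and those of sperm alike. Its r with the leukocyte mean was 0.71 and its rho 0.72 (both permutation p = 1e-05, adjusted 5.4e-05 and 4.5e-05), and r was 0.75 without water-recovery replicate 20 and HD-recovery replicate 19. Within the groups r ran from 0.56 in water-recovery to 0.82 in water. With the erythroid mean r was 0.73. With the mean of the sperm and spermatid list it was 0.71 (rho 0.71), from 0.67 to 0.78 within the groups. Leaving out the arrays standing apart, these 3 values were 0.66, 0.62 and 0.56 in the order given. Spaca3 went against the leukocyte mean, at an r of −0.65 (rho −0.67, both permutation p = 1e-05, adjusted 5.4e-05 and 4.5e-05), and from −0.60 to −0.72 within the groups. Spam1 had −0.42 with that list, and −0.62 without HD replicate 5.

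A single component held 41.9% of the variance within groups, and the members stood at both ends of it. Given as descriptions, their correlations with it, signed so that the leukocyte mean (r = 0.72) is positive, were 0.88 for Zpbp, 0.74 for Acrbp, 0.51 for Acr, 0.505 for Crisp2 and −0.46 for Spaca3. Spam1 was at −0.07, and at −0.70 without HD replicate 5. The sperm and spermatid mean, at 0.73, lay on the same side as the leukocyte mean. The part of this component in the pairs above was not tested.

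**Figure D5:**
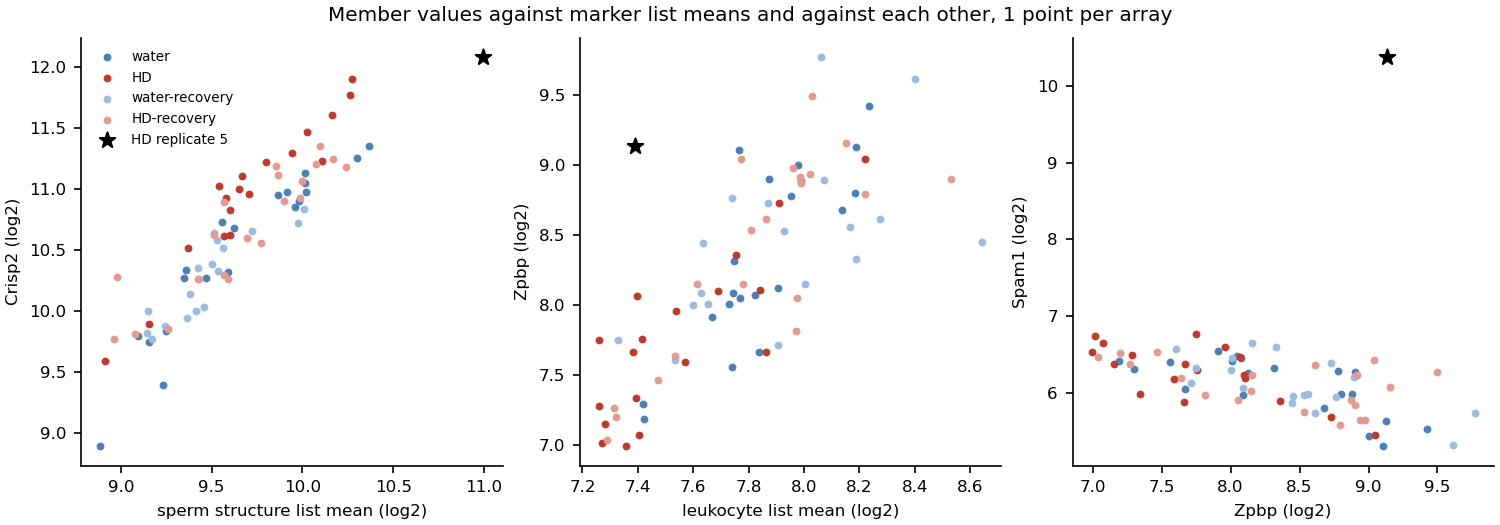
Log2 values of 77 arrays, coloured by group: Crisp2 against the mean of the sperm and spermatid list, Zpbp against the mean of the leukocyte list, and Spam1 against Zpbp. HD replicate 5 (star) lies along the trend of Crisp2 and off both others, where Spam1 is lower as Zpbp is higher on the remaining arrays.

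The genes whose pattern was most like that of the members together were ranked by Pearson's r with the mean of the members' standardised values over the 77 arrays, group means removed. They were Tex36 (0.96), Tsbp1 (0.95), Spag4 (0.95), Cimip4 (0.94) and Spmip7 (0.94). Without HD replicate 5 they were Cmtm1 (0.89), Tex36 (0.88), Ube2d2b (0.87), Mael (0.86) and Cimip4 (0.86), so that Tex36 and Cimip4 stood in both lists.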

How the data were processed

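RNA of sperm from 77 rats was measured on Affymetrix Rat Gene 1.0 ST arrays. The authors deposited 1 table of normalized values for each probe set and array. Their range, 2.51 to 14.63, was read as log2 intensities, and neither the normalization steps nor a version of limma, which the submitters' processing notes name, are given in the sources used here. An array gives no read depth, so precision rests on the number of arrays. Groups came from the labels, and arrays of a group are labelled as biological replicates.

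The platform annotation gave a single symbol to 15310 probe sets, several to 323 and none to 13581, and all were tested. limma 3.58.1 (R 4.3.3) was fitted to the deposited log2 values, for HD against water and HD-recovery against water-recovery on these 2 groups alone, as in the methods of the study, and for the other comparisons on all 4 groups. Storey q-values were computed over all probe sets, with a threshold of 0.05. Correlations and spreads used permutation tests in Python with numpy. The fit and the permutation test were tested on simulated data, drawn independently, without the shared component or the arrays standing apart. Named genes were all members, the leading genes by p of the wider lists in each direction, and the 5 most similar probe sets. The members, the gene lists and the tests were chosen with earlier results of these data known. Alternatives are given in the closing section, and those that leave out HD replicate 5, or the arrays standing apart, for correlations, spread, most similar genes and the wider lists were added after seeing the data.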

Additional observations from a re-analysis of the deposited data

How the results depend on the processing

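No member was altered under Benjamini-Hochberg adjustment, centred medians, quantile normalization, the filter on dim probe sets (which left out Acrv1, Izumo1, Zpbp2 and Spam1), the other scope of fit, the number set as a covariate, or in any fit without 1 array (0 to 0 members in each comparison). With array weights, members altered were 5 (HD versus water), 2 (HD-recovery versus water-recovery), 5 (HD-recovery versus HD) and 3 (change of the exposure difference). Without the arrays standing apart they were 6, 3, 5 and 3 in the same order. The first component as a covariate gave 2 in HD versus water and 1 in HD-recovery versus HD, and numbers 11 to 20 alone gave 1 (Zpbp) in the latter. Over all probe sets, HD versus water called 138, and 63 with centred medians, 352 after quantile normalization, 223 without dim probe sets, 221 with all groups in the fit, 40 with numbers 1 to 10, 0 with 11 to 20 and 76 to 376 without single arrays. HD-recovery versus HD called 45, and 16, 120 and 62 under the first 3 of these, 9 with only its 2 groups in the fit, 5 with numbers 1 to 10 and 16 to 172 without single arrays. Water-recovery versus water called 0, and 2106 with numbers 1 to 10. The replicate block called 0 members in the 4 comparisons that allow it, with 156 probe sets in HD versus water and 25 in HD-recovery versus HD. Same-numbered arrays had a median correlation of 0.03, 0.04, 0.19 and −0.02 in these. The correlation was over 0.1 in 8 of 19, 8 of 18, 10 of 19 and 6 of 18 pairs. Arrays matched their own number best in 2, 4, 2 and 0. The numbers were not used to pair rats in the main fits, and what they stand for cannot be told from these values. Member pairs correlated numbered 26, and 24 without HD replicate 5, a setting chosen after seeing the data.

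In HD versus water no member changed sign under any of these settings. Elsewhere values that changed sign were these, and the cause was not tested. In HD-recovery versus water-recovery, Spaca3 was −0.0058 after quantile normalization, −0.030 with array weights, −0.063 without the arrays apart and −0.019 with numbers 11 to 20. Zpbp was 0.11 with array weights, 0.26 without the arrays apart and 0.092 with numbers 11 to 20, Izumo1 −0.0011 under the replicate block and −0.075 with numbers 1 to 10, and Spam1 0.066 with numbers 11 to 20. Without single arrays Spaca3 ran from −0.013 to 0.024, Izumo1 from −0.021 to 0.033 and Spam1 from −0.072 to 0.0060. In HD-recovery versus HD, Acrbp was 0.031 without the arrays apart, Zpbp −0.13 with numbers 1 to 10 and Izumo1 0.049 with 11 to 20. In water-recovery versus water, Izumo1 was 0.0059 and Zpbp2 0.0049 with array weights, and Zpbp −0.020 and Zpbp2 0.0019 without the arrays apart. With numbers 1 to 10, Acrv1 was 0.0020 and Zpbp −0.43, and with 11 to 20 Acrbp was 0.045, Spaca3 −0.028, Izumo1 0.0086 and Spam1 −0.18. Without single arrays Izumo1 ran from −0.043 to 0.012 and Spam1 from −0.011 to 0.078. For the change of the exposure difference, Acrbp was −0.070 with array weights, −0.14 without the arrays apart and from −0.014 to 0.097 without single arrays, and Crisp2 −0.10 without the arrays apart. With numbers 11 to 20 Acr was −0.19, Acrv1 −0.13, Izumo1 −0.041 and Crisp2 −0.10. Means over several probe sets of a gene were not run, since each measured member had 1.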
